A study of Mus musculus with 12 samples.

Results

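Interferon-stimulated genes, the receptors and kinases that switch them on and the interferon regulatory factors (IRFs) were examined in ileum tumours of mice. The 48 genes were chosen by symbol: 44 matched 72 probes of the array. Of these probes 61 were detected (p-value against the negative control beads under 0.05) in 4 or more of the 12 samples, which left 39 genes of 10967 tested in all. Isg15, Xaf1, Parp9 and Dtx3l had no probe under those symbols. The probes of Ifit1 and Ifnar1 were detected on 0 of 12 arrays, those of Ifi44 on 1 and 0, that of Rtp4 on 2 and that of Mx1 on 3, so these 5 genes were not tested. Of the 39 tested genes 32 were detected on all 12 arrays. Tumours came from FVB/N mice aged 3 to 4 months, and both groups carry the APCmin mutation, a truncating allele of the tumour suppressor Apc that causes intestinal adenomas. The 6 arrays numbered 1 to 6 are labelled FVBN/APCmin and the 6 numbered 7 to 12 are labelled iPGC-1β/APCmin, where the intestinal line of that name is known to overexpress the coactivator PGC-1β. The labels describe neither the construct nor the promoter that drives it, and do not say whether tumours came from separate animals, so p-values measure the spread between these samples, which may be technical.

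Interferons are cytokines that put cells into an antiviral and antigen-presenting state. Type I interferons bind Ifnar1 and Ifnar2, and through Jak1 and Tyk2 activate a complex with Stat2 and Irf9 that binds the interferon-stimulated response element. Interferon-gamma, made by T and NK cells, binds Ifngr1 and Ifngr2, and through Jak1 and Jak2 acts on genes with a gamma-activated site. Both routes share many targets, so a gene can only lean to one of them. By general knowledge of their induction, 28 of the 48 genes were listed as type I-leaning (22 tested), 3 as gamma-leaning (Irf1, Irf8 and Socs1, all tested) and 8 as induced by both (6 tested). The other 9, of which 8 were tested, are receptors, kinases and IRFs that are not defined by induction.

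The upstream sequence of these genes holds both kinds of element, which did not sort cleanly by leaning. In RefSeq windows of GRCm38.p6, from 250 bases before to 50 after the start, 2 motifs were searched on both strands, overlaps allowed. The first, GAAA then any 2 bases then GAAA, is the core of the interferon-stimulated response element, and the second, TTCNNNGAA, is that of the gamma-activated site and reads the same on both strands. The response element core was in at least 1 window of 11 of the 20 type I-leaning genes that had one (55.0%), against 3.99% of 27025 genes in the table. TTCNNNGAA was in 2 of 3 gamma-leaning genes and 5 of 20 type I-leaning ones, against 9.55% of all genes. The response element core was also in 9 of 20 gamma-inducible genes outside the 48, where TTCNNNGAA was in 7, and in 1 of the 3 gamma-leaning genes, Socs1, which had no TTCNNNGAA. Of 37 type I-inducible genes outside the 48, 15 (40.5%) had the response element core and 5 had TTCNNNGAA. TTCNNNGAA was in 3 of the 9 receptors, kinases and IRFs and in 2 of 6 genes induced by both. The response element core was in 1 and 2 of these. The windows shown are those of the leading gamma-leaning pair, Irf1 at chr11:53769764-53770063 (plus strand) and Irf8 at chr8:120736108-120736407 (plus strand), and of 2 type I-leaning genes, Ifit3 at chr19:34583279-34583578 (plus strand) and Oas1g at chr5:120887564-120887863 (minus strand). Irf1 and Irf8 have a second window each, which holds neither motif and is not shown. Capitals mark matches to either motif, and overlapping matches run together. A match is a description of letters and not a measured binding site.
Irf1: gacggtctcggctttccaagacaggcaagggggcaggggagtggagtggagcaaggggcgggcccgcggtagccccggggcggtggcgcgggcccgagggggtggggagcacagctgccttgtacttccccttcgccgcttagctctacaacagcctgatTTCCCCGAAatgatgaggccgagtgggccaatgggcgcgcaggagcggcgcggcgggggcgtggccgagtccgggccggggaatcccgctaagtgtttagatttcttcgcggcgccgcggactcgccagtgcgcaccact
Irf8: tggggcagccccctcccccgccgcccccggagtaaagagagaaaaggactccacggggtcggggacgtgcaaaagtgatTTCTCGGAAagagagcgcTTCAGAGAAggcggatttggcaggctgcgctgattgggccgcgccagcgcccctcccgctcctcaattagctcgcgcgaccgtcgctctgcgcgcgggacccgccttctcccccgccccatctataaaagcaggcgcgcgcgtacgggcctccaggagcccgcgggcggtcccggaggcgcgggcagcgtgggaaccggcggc
Ifit3: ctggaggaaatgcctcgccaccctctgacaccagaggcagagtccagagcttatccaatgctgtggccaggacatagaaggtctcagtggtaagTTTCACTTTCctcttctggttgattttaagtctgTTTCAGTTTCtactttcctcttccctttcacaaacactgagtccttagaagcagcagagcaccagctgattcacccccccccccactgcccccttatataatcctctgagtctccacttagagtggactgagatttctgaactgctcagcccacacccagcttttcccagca
Oas1g: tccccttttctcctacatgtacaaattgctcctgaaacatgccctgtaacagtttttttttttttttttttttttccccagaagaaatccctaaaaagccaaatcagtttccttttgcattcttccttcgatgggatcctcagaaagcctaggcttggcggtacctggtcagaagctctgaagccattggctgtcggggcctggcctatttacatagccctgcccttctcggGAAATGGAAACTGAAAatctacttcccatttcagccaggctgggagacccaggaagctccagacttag
The Irf1 match TTCCCCGAA began 90 bases before the start, and the Irf8 matches TTCTCGGAA and TTCAGAGAA began 171 and 153 bases before it. In Ifit3 the matches TTTCACTTTC and TTTCAGTTTC, on the reverse strand, began 156 and 122 bases before the start. In Oas1g GAAATGGAAA and GAAACTGAAA overlap, beginning 18 and 12 bases before the start.

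Levels are log2 intensities after background correction and quantile normalization, and differences on that scale subtract FVBN/APCmin from iPGC-1β/APCmin, with n = 6 arrays per group. The median raw intensity of an array lay between 139.3 and 170.5, and 12858 to 14445 probes were detected per array. Ppargc1b, the gene for PGC-1β, did not have a higher level on arrays 7 to 12 (-0.55, SE 0.30, limma adjusted p = 0.296), so the measured level did not show the genotype. Arrays 6 and 7 stand apart in lymphocyte mRNA. The level of 26 T, NK, B and plasma cell genes, as a mean of values centred per gene, was 1.31 to 1.67 on arrays 1 to 5 and -0.82 on array 6. It was 1.78 on array 7 and -2.01 to -1.15 on arrays 8 to 12. Outside arrays 6 and 7 this level went with genotype, so a fit that holds both can hardly tell them apart. Epithelial genes were detected, but not every ileal gene was. The bile acid binding protein gene Fabp6 was at 14.60 ± 0.48 (SD, n = 6) on the control arrays and 13.14 ± 1.39 (SD, n = 6) on the others. That difference was -1.46 (limma adjusted p = 0.119). The bile acid transporter gene Slc10a2 was detected on 0 arrays.

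As a whole the interferon genes differed between genotypes no more often than other genes on the array. With limma p-values adjusted across the 10967 genes by Benjamini-Hochberg and a threshold of 0.05, 1 of 39 was lower in iPGC-1β/APCmin (Irf8), where 1.23% of all genes were, and 0 were higher, where 2.22% were (3.45% in either direction). At an unadjusted p below 0.05 there were 9 of 39 (23.1%, beside 23.3% of all genes). Of them 7 were lower, where 11.8% of all genes were, and 2 higher, where 11.5% were. In none of the 39 did the 6 arrays of a genotype lie wholly beyond the 6 of the other, where 2.82% of all genes separated the groups this way (0.884% lower, 1.93% higher). The median difference of the 39 was -0.20, beside -0.01 over all genes, and 25 (64.1%) were below 0, beside 51.4% of all genes. The members did not move as 1 group. Irf1 and Irf8, the gamma-leaning genes detected in both genotypes, all 6 tested genes induced by both interferons and all 8 tested receptors, kinases and other IRFs were below 0, with median differences of -1.22, -0.49 and -0.33. The third gamma-leaning gene, Socs1, passed the filter through the control arrays alone, so its direction is not counted with them. The 22 type I-leaning genes lay on both sides, 8 below and 14 above 0, with a median of 0.12. With lymphocyte level added to the fit this contrast was kept only in part, and 16 of the 22 were then below 0. Irf2, Irf3, Irf5, Jak1, Jak2 and Ifnar2 turned above 0 (0.07, 0.27, 0.38, 0.10, 0.16 and 0.43). Trim21, induced by both, did too (0.10), while Ifngr1, Ifngr2 and the other genes induced by both stayed below 0. That fit can hardly separate genotype from lymphocyte level, and none of the 39 had an unadjusted limma p below 0.05 in it.

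**Figure D1:**
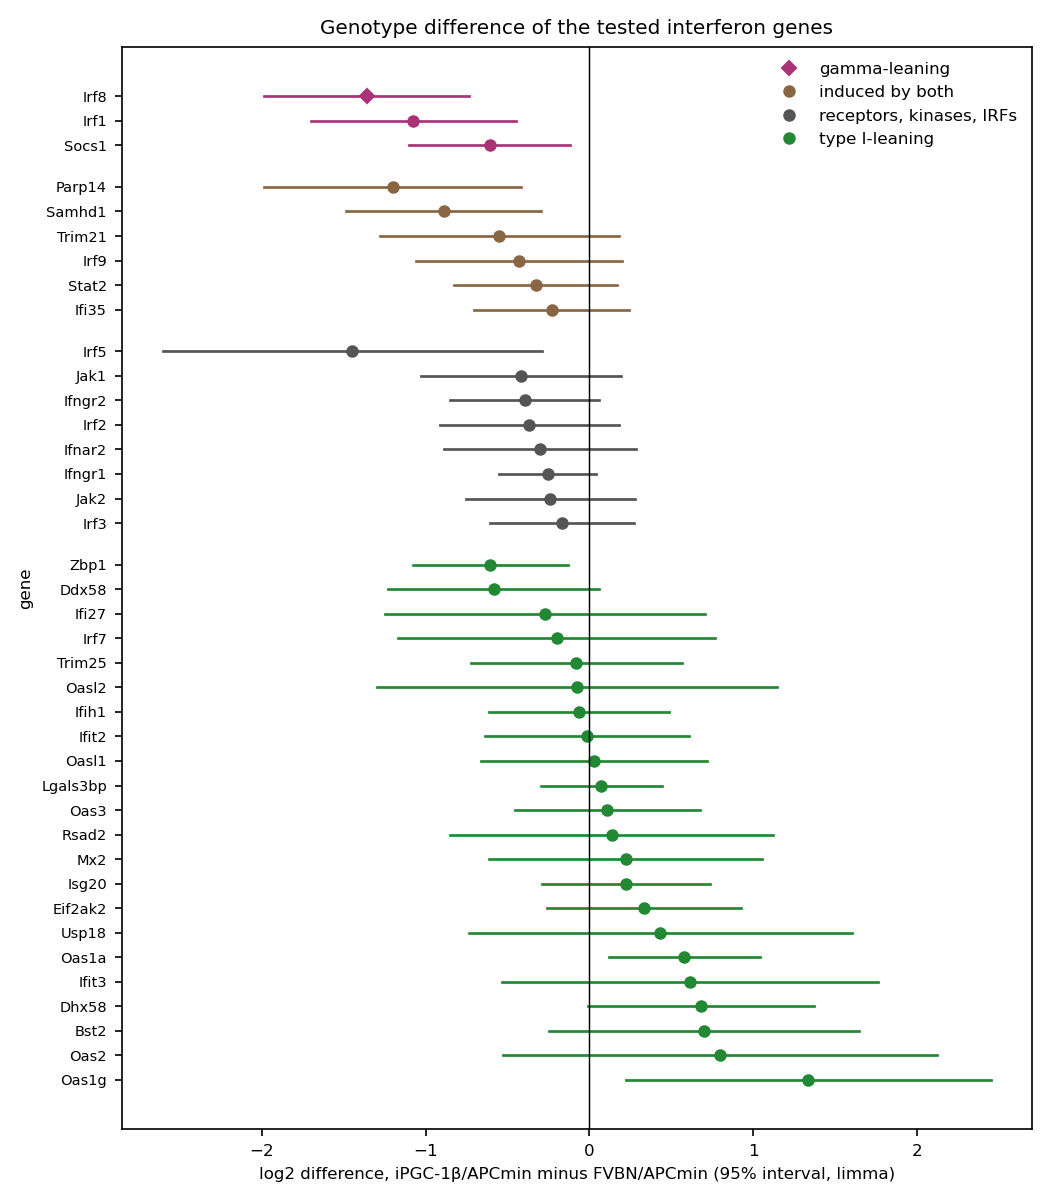
Difference in log2 level between genotypes (horizontal axis, iPGC-1β/APCmin minus FVBN/APCmin) with its 95% limma interval for each of the 39 tested genes (vertical axis), grouped by leaning. The diamond marks Irf8, the single gene with an adjusted p below 0.05; the 17 genes outside the type I-leaning group lie left of 0, Socs1 among them as a gene detected on control arrays alone, while the 22 type I-leaning genes spread from -0.61 to 1.34.

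Irf8, a transcription factor of B cells, macrophages and dendritic cells that interferon-gamma induces, was the gene that fell. Its log2 level was 9.91, 10.37 and 10.54 (lowest, median, highest) on the FVBN/APCmin arrays and 8.19, 8.82 and 10.36 on the iPGC-1β/APCmin arrays. Array 7, at 10.36, lay within the control range, and the other 5 iPGC-1β/APCmin arrays lay below every control array. The difference was -1.36 (SE 0.29; limma adjusted p = 0.0259), a 2.57-fold lower mean. Leaving out array 6, 7, 8 or 9 kept the call, and leaving out any of the other 8 arrays gave adjusted p from 0.0510 to 0.0677. With lymphocyte level added to the fit the difference was -0.48 (limma adjusted p = 0.507).

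Irf1, the IRF that carries the first wave of the interferon-gamma response to genes of antigen processing, did not pass. Its level was 13.17, 13.35 and 13.88 in the controls and 11.51, 12.14 and 13.28 in iPGC-1β/APCmin. Arrays 7 and 8 (13.28 and 13.23) overlapped the controls and arrays 9 to 12 (11.51 to 12.17) lay below them all. Array 6, low in lymphocyte mRNA, had Irf1 at 13.38, in the middle of the control arrays. Within iPGC-1β/APCmin, array 7, highest in lymphocyte mRNA, had the highest Irf1, with array 8, lowest in that mRNA, next. The difference was -1.07 (SE 0.29; limma adjusted p = 0.0556), and each of the 4 other Irf1 probes gave -1.30 to -1.04. It passed without array 7 (adjusted p = 0.00721) or array 8 (0.0283). With lymphocyte level added to the fit the difference was -0.67 (95% interval -1.50 to 0.16).

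Socs1, the feedback inhibitor that blocks Jak kinases after interferon-gamma, was detected on 5 FVBN/APCmin arrays and on 0 iPGC-1β/APCmin arrays, so it entered the test through the control group alone. Its level was 4.82, 5.85 and 6.06 in FVBN/APCmin. In iPGC-1β/APCmin it was not well above background, and the sample mean there was at least 1.32-fold lower, a bound that carries no error. That bound sets the control mean against, on each array, the higher of the gene's own signal and the dimmest detected probe. Control arrays 5 and 6 (5.20 and 4.82) lay below iPGC-1β/APCmin arrays 11 and 12 (5.35 and 5.21), and the fitted difference did not pass (limma adjusted p = 0.133).

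Among the 6 genes induced by both interferons, Parp14 and Samhd1 had the largest differences and neither passed. Parp14 encodes a mono-ADP-ribosyltransferase that interferons induce. Its level was 11.19, 11.60 and 11.79 in the controls and 8.90, 10.23 and 11.77 in iPGC-1β/APCmin. Array 8 was as high as the controls and the other 5 arrays were below them all, array 7 included, at 11.02. The difference was -1.20 (SE 0.37; limma adjusted p = 0.0762), and it was -1.09 with lymphocyte level added to the fit (adjusted p = 0.486). Samhd1, a nucleotide hydrolase that restricts retroviruses in myeloid cells, had a level of 9.64, 10.54 and 10.91 in FVBN/APCmin. In iPGC-1β/APCmin it was 8.85, 9.44 and 10.47, and the groups overlapped through array 6 (9.64) and arrays 7 and 8 (10.47 and 9.85). Its difference of -0.89 (SE 0.28; limma adjusted p = 0.0800) was -0.15 with that covariate. Trim21, the cytosolic antibody receptor, differed by -0.55, but a second probe of it gave 0.21. The transcription factor genes Irf9 and Stat2, which act together downstream of the type I receptor, differed by -0.43 and -0.33, and Ifi35 by -0.23, none passing.

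Of the receptors, kinases and IRFs not defined by induction, none passed over all genes. Irf5 drives inflammatory cytokines in macrophages and B cells. Its level was 6.18, 8.20 and 8.44 in the controls and 5.35, 6.10 and 8.76 in iPGC-1β/APCmin. Its high and low arrays were those of the lymphocyte level: array 6 was at 6.18 while arrays 1 to 5 were at 7.99 to 8.44, and array 7 was at 8.76 while arrays 8 to 12 were at 5.35 to 6.76. The difference was -1.45 (SE 0.54; limma adjusted p = 0.131), and it was -0.74 without background correction and in the authors' normalized table. It turned to 0.38 (95% interval -0.22 to 0.99) with lymphocyte level added to the fit. It passed without array 6 (adjusted p = 0.0475) or array 7 (0.00657). In bulk tumour RNA, fewer cells of a type and less RNA per cell cannot be told apart.

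The interferon-gamma receptor genes differed by -0.39 (Ifngr2, SE 0.21, limma adjusted p = 0.283) and -0.25 (Ifngr1, SE 0.14, limma adjusted p = 0.288). Ifngr2 was at 9.69, 10.52 and 10.70 in the controls and 9.46, 10.07 and 10.43 in iPGC-1β/APCmin, with the groups overlapping. Its 2 other probes gave differences of 0.03 and -0.02, so its probes did not agree on a direction. The type I receptor chain gene Ifnar2 differed by -0.30, the kinase genes Jak1 and Jak2 by -0.42 and -0.24, and Irf2, a repressor that competes with Irf1, by -0.37. Irf3, the factor that starts interferon-beta transcription after viral sensing, differed by -0.17 (95% interval -0.61 to 0.27), while its other probes gave 0.13 and -0.13.

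**Figure D2:**
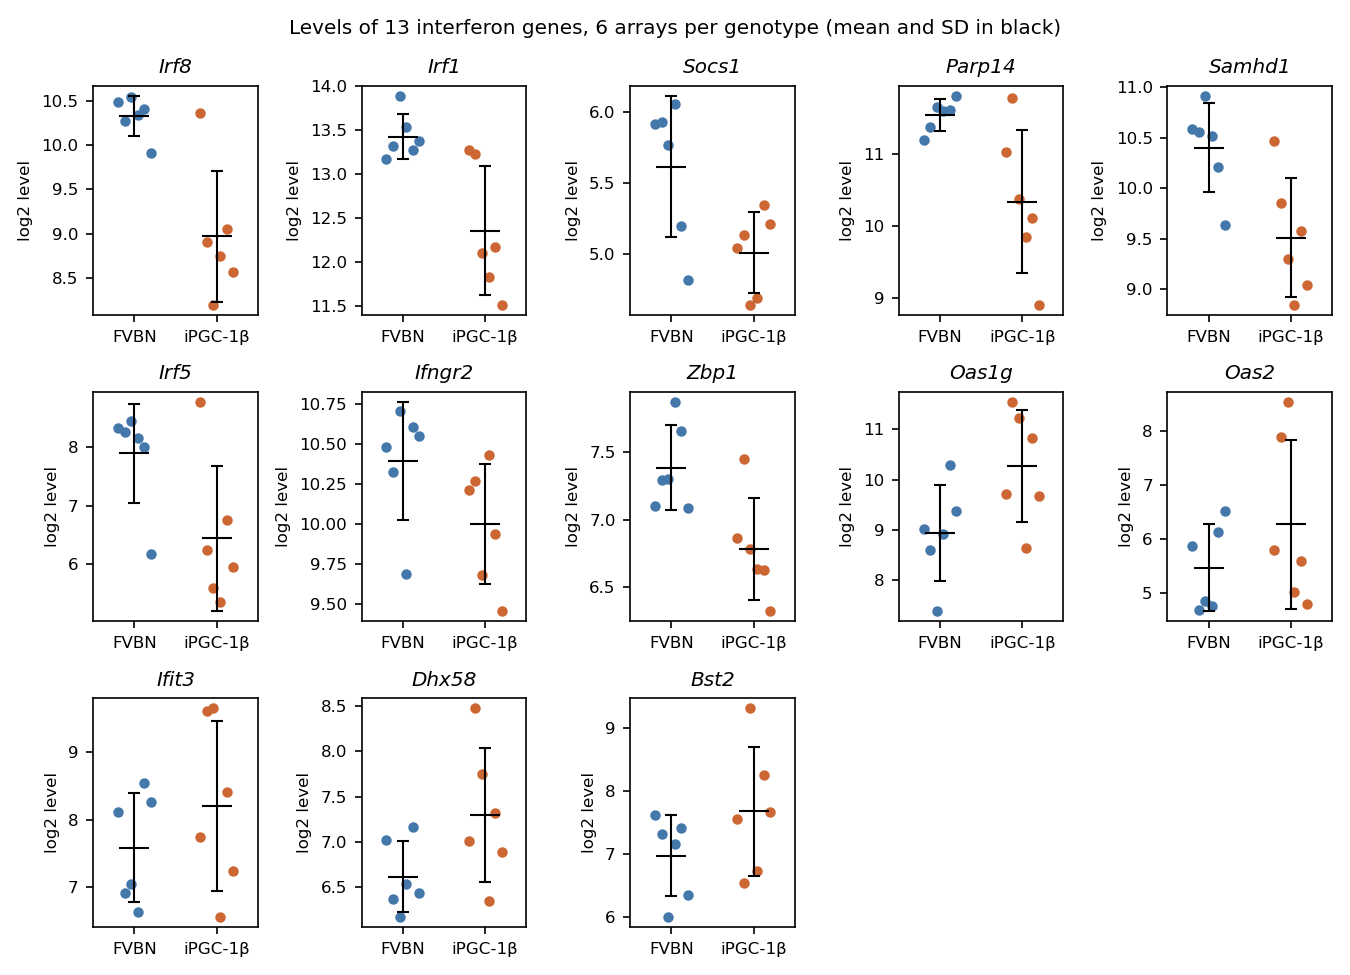
Log2 level of 13 interferon genes on each array (points), with the mean and SD of each genotype in black and vertical axes scaled per gene. Irf8 has 5 iPGC-1β/APCmin arrays below all FVBN/APCmin arrays and array 7 at 10.36, while for Oas1g, Oas2, Ifit3 and Dhx58 the highest 2 points are iPGC-1β/APCmin arrays 8 and 9.

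The type I-leaning genes showed a pattern by array. Of the 22, array 8 was the highest array for 12 and array 9 for 8, where these arrays were the highest for 14.1% and 12.1% of all genes. The other 2, Ifi27 and Zbp1, were highest on control arrays 2 and 4. Array 8 was also the highest array for 2 of the 6 genes induced by both (33.3%). The mean of the 22 after centring each gene was 0.92 on array 8 and 0.96 on array 9. It was -0.39 to 0.29 on the FVBN/APCmin arrays, -0.22 on array 7, 0.14 on array 11, and -0.65 and -0.56 on arrays 10 and 12. So the iPGC-1β/APCmin tumours held both the highest and the lowest levels of this group. They also did for the genes induced by both (0.41 and -0.99) and for the receptors, kinases and IRFs (0.65 and -0.77). The SD between arrays of the 22 genes had a median of 0.73 in iPGC-1β/APCmin and 0.39 in FVBN/APCmin, beside 0.48 and 0.31 for all genes. The wider spread was not particular to them. It was 0.74 and 0.25 for gamma-leaning genes, 0.67 and 0.23 for those induced by both, and 0.53 and 0.23 for receptors, kinases and IRFs. Array 8 was also the lowest in lymphocyte mRNA (-2.01), with array 9 next, while array 10, the lowest in the 22-gene level, was at -1.77.

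**Figure D3:**
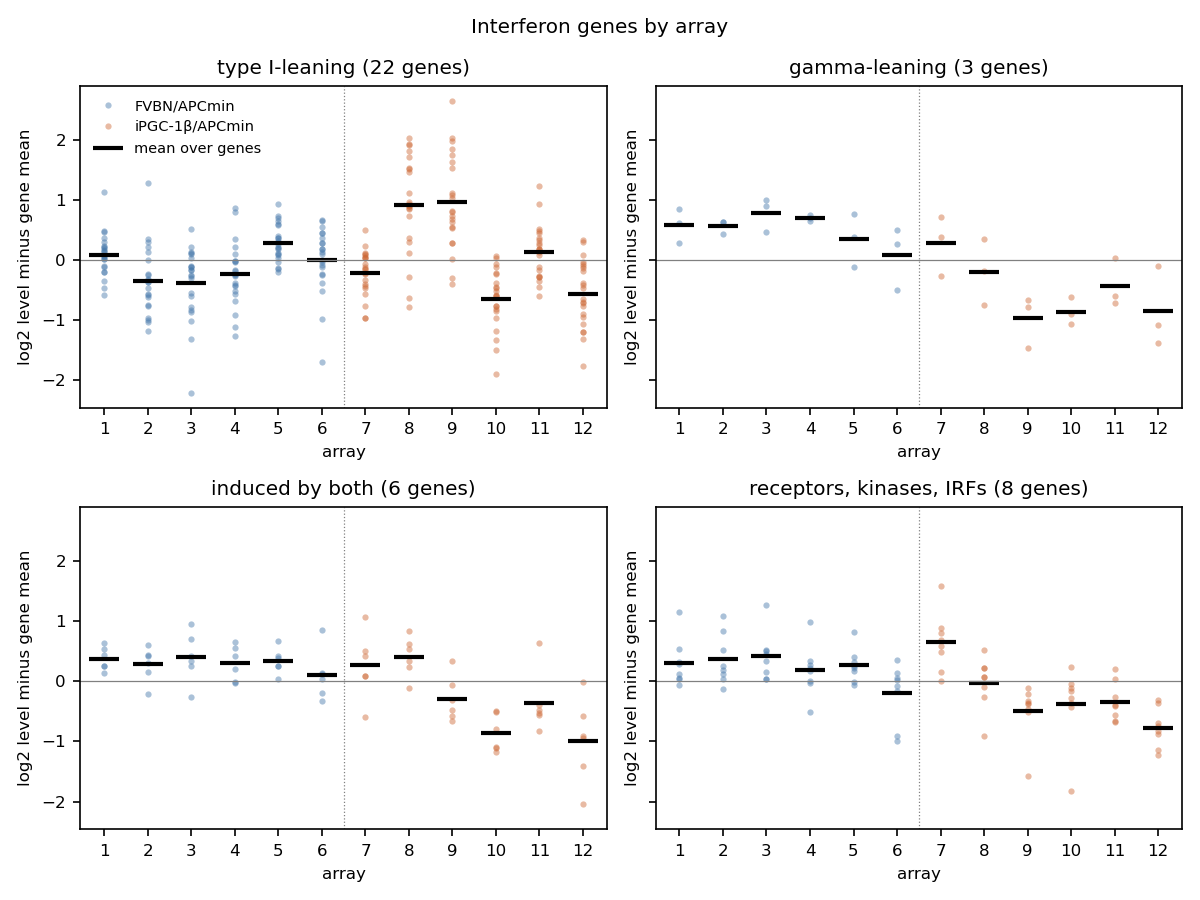
Log2 level of each tested gene minus its mean over the 12 arrays (vertical axis) on each array (horizontal axis, FVBN/APCmin 1 to 6 and iPGC-1β/APCmin 7 to 12), in 4 panels by leaning; points are genes and black bars their mean. The type I-leaning mean stands at 0.92 and 0.96 on arrays 8 and 9, where the gamma-leaning mean is at -0.20 and -0.97.

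The antiviral effectors carried that pattern with wide differences between single tumours. Oas1g belongs to the 2'-5' oligoadenylate synthetases, which activate RNase L on double-stranded RNA. Its level was 7.39, 8.97 and 10.30 in the controls and 8.64, 10.27 and 11.54 in iPGC-1β/APCmin, highest on arrays 8, 9 and 11 (11.54, 11.23 and 10.83). The groups overlapped and the difference of 1.34 (SE 0.52) did not pass (limma adjusted p = 0.144); the second kept probe gave 1.02. Its near-identical relative Oas1a, which the probe may not tell apart, was detected on 1 control array and on iPGC-1β/APCmin arrays 8, 9 and 11. Its fitted difference of 0.58 (limma adjusted p = 0.128) thus sets measured levels against control values mostly not above background.

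Oas2 was at 4.69, 5.36 and 6.52 in the controls and 4.80, 5.69 and 8.52 in iPGC-1β/APCmin. Only arrays 8 and 9 (7.89 and 8.52) were above the controls, and the difference was 0.80 (SE 0.62; limma adjusted p = 0.468). Oas3, Oasl1 and Oasl2 differed by 0.11, 0.03 and -0.08, although Oasl2 reached 11.78 and 11.49 on arrays 8 and 9 against a control maximum of 10.69. The other Oasl2 probe gave 0.08.

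Ifit3, of the family that binds foreign RNA caps and blocks translation, was at 6.64, 7.58 and 8.55 in the controls and 6.56, 8.08 and 9.65 in iPGC-1β/APCmin. Arrays 8 and 9 (9.61 and 9.65) exceeded every control array and array 10 (6.56) lay below them. Its difference was 0.61 (SE 0.54; limma adjusted p = 0.528). Ifit2 differed by -0.02, with 0.38 from its other probe, and was also highest on arrays 8 and 9 (7.30 and 7.01).

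Bst2, or tetherin, which holds budding viruses at the cell surface, was at 6.00, 7.24 and 7.62 in the controls and 6.55, 7.61 and 9.31 in iPGC-1β/APCmin. It was highest on arrays 9 and 11 (9.31 and 8.25), and within that genotype it was lowest on array 8 (6.55), as was Isg20, an RNA exonuclease (5.09). Its difference was 0.70 (SE 0.44; limma adjusted p = 0.362). Rsad2 (viperin), Mx2 and Isg20 differed by 0.14, 0.22 and 0.22, and Rsad2 reached 9.61 on array 9 against a control maximum of 8.23.

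Sensors of viral nucleic acid leaned both ways. Dhx58, which encodes LGP2, a helicase that tunes RIG-I-like sensing, was at 6.17, 6.49 and 7.16 in the controls and 6.35, 7.16 and 8.47 in iPGC-1β/APCmin. Its difference was 0.68 (SE 0.32; limma adjusted p = 0.221), and 5 of the 6 iPGC-1β/APCmin arrays were above the control mean. Zbp1, a sensor of Z-form nucleic acid that starts necroptosis, was at 7.09, 7.30 and 7.87 in the controls and 6.32, 6.71 and 7.45 in iPGC-1β/APCmin. All iPGC-1β/APCmin arrays but array 8 lay below every control array, and the difference was -0.61 (SE 0.22; limma adjusted p = 0.125), with -0.72 from a second probe. Ddx58, which encodes RIG-I, differed by -0.58 and Ifih1, which encodes MDA5, by -0.06. Eif2ak2, the kinase PKR that halts translation, differed by 0.33.

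The remaining type I-leaning genes differed by less than 0.5. Usp18, which removes Isg15 from proteins and shuts off the type I receptor, differed by 0.43 (SE 0.54), with 10.17 and 10.28 on arrays 8 and 9 against a control maximum of 8.31 and 6.36 on array 10. Irf7, the amplifier of type I interferon transcription, differed by -0.20 (95% interval -1.17 to 0.77). Ifi27 differed by -0.27, Trim25, a ubiquitin ligase of RIG-I, by -0.08 and Lgals3bp, a secreted glycoprotein, by 0.07.

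Within each tumour, the type I-leaning level stood higher against the gamma-leaning one on arrays 8 to 12 than on the other arrays. The mean of the type I-leaning genes minus that of the 3 gamma-leaning genes, each gene centred over the 12 arrays, was -1.17 to -0.06 on the FVBN/APCmin arrays. It was -0.49 on array 7, within that range, and 0.22 to 1.94 on arrays 8 to 12, above it. The highest values, 1.12 and 1.94, were on arrays 8 and 9. Since genes were centred, 0 marks the mean over the 12 arrays, and values below 0 are gaps too. On arrays 10 and 12 both leanings were low. The type I-leaning level was -0.65 and -0.56 there, and the gamma-leaning level was -0.86 on each. Without Socs1 the gap was -1.33 to -0.28 on the control arrays, -0.77 on array 7 and 0.34 to 2.09 on arrays 8 to 12. The medians of the genotype differences were 1.20 apart, -1.07 for the gamma-leaning genes with Socs1 (-1.22 without it) and 0.12 for the type I-leaning genes. With lymphocyte level added to the fit these medians were -0.48, Socs1 included, and -0.06.

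Interferon-gamma also induces genes outside the 48, and many of those fell. Of 31 listed genes that interferon-gamma induces, 26 were tested and all 26 were below 0, with a median of -1.37. Of these 12 passed, all lower, which is 46.2% beside 1.23% of all genes, and in 5 the groups did not overlap, beside 0.884%. Earlier results on these samples already showed several of them lower, so the list is not independent evidence of its direction. Ido1 (Indo in the file), the tryptophan-degrading enzyme, fell by 2.30 (SE 0.32, limma adjusted p = 0.00305), from 12.39 ± 0.11 to 10.09 ± 0.85 (SD, n = 6 each). Nos2, the inducible nitric oxide synthase, fell by 1.75 (SE 0.29, limma adjusted p = 0.00777). Others past the threshold were Ubd, Ifi47, Cd274, Igtp, Gbp2, Irgm2, Cxcl9, H2-Ab1 and Ciita. Without 4 genes of MHC class II, which B cells also express (a check added after seeing the data), 10 of 22 passed with a median of -1.36.

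With lymphocyte level added to the fit the median of the 26 was -0.52. In that fit 0 of the 26 passed by limma, beside 0.0456% of all genes, and 8 had an unadjusted p below 0.05, beside 10.6% of all genes. Ido1 then differed by -1.97 (95% interval -2.90 to -1.04, limma adjusted p = 0.116) and Nos2 by -1.62 (-2.48 to -0.75, limma adjusted p = 0.167). Leaving out single arrays moved the count of 12 between 5 and 17, while the count of all genes lower moved between 35 and 973. Both were highest without array 7. Without array 1, 2, 3, 4, 5, 10 or 12 the count of outside gamma-inducible genes was 5 to 7.

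Of 42 other genes that type I interferon induces, 21 were tested, 17 were below 0 and the median was -0.52, where the 22 members had 8 below 0 and a median of 0.12. The difference between these lists was not tested. Trafd1, a negative regulator of innate signalling, fell by 0.82 (SE 0.19, limma adjusted p = 0.0357). It was the 1 of 21 past the threshold, beside 1.23% lower of all genes. Its groups did not overlap, where 0.884% of all genes separated lower. Its call held without array 6, 7 or 8, and leaving out any of the other 9 arrays gave adjusted p from 0.0508 to 0.0903. It was also lost with a common 75th percentile (0.0593), without a filter (0.0543), with the mean of all kept probes (0.122) and with lymphocyte level added to the fit (0.428). The next smallest p-values were those of Uba7, the activating enzyme of Isg15, at -1.16 (limma adjusted p = 0.0688), Epsti1 at -0.62 and Ifitm1, a membrane protein that blocks viral entry, at 1.67 (limma adjusted p = 0.133). Array 8 was the highest array for 3 of the 21 and array 9 for 1, beside 14.1% and 12.1% of all genes.

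**Figure D4:**
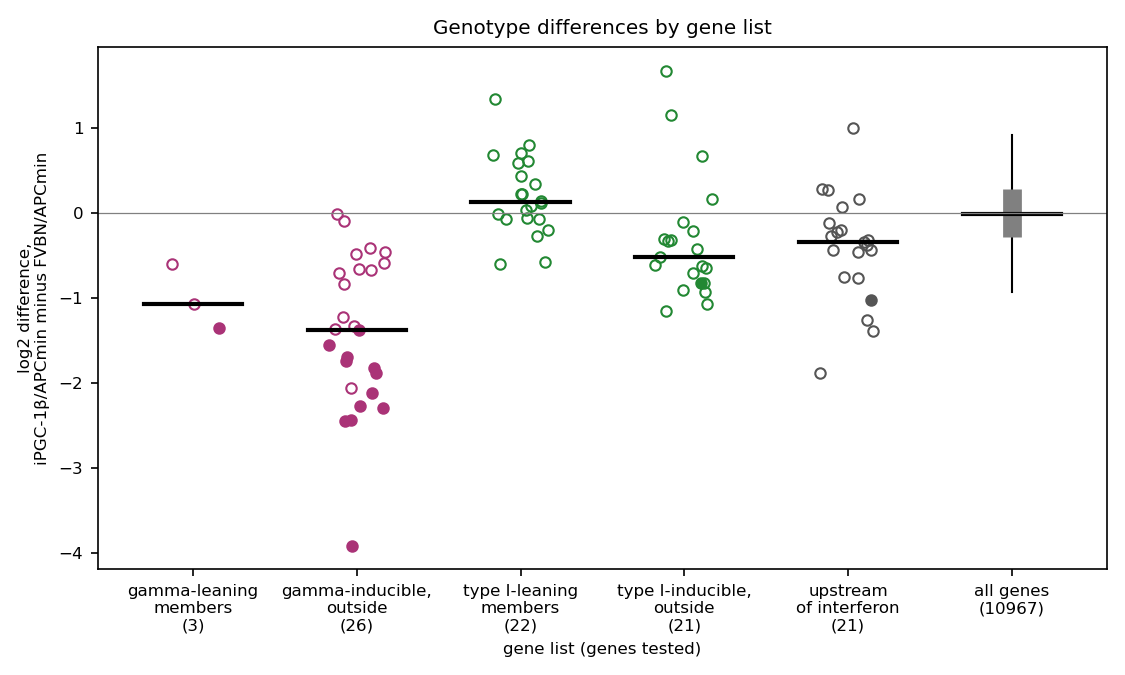
Log2 difference between genotypes (vertical axis) for the tested genes of 5 lists (points, filled where the limma adjusted p is below 0.05; bar, median) and for all 10967 genes (bar, median; box, quartiles; line, 5th to 95th percentile). The 26 gamma-inducible genes outside the 48 all lie below 0 with a median of -1.37, the 22 type I-leaning members centre on 0.12 and the 21 other type I-inducible genes on -0.52.

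The interferons themselves were near the detection limit. Ifnb1, Ifna2 and Ifna4 were detected on 0 of 12 arrays, and Ifng on 3 FVBN/APCmin arrays and on 0 iPGC-1β/APCmin arrays. Of 30 genes listed upstream of the interferon response 21 were tested, with 16 below 0 and a median of -0.35. Ikbke, a kinase that activates Irf3 and Irf7, fell by 1.03 (SE 0.23, limma adjusted p = 0.0315). It was the 1 of 21 past the threshold, beside 1.23% lower of all genes. Its groups did not overlap, where 0.884% of all genes separated lower. Its call held without array 4, 6, 7, 8 or 9, and leaving out any of the other 7 arrays gave adjusted p from 0.0542 to 0.0822. With lymphocyte level added to the fit it differed by -0.84 (adjusted p = 0.369). Tyk2, the kinase of the type I receptor, differed by -0.76 (limma adjusted p = 0.0646), the lymphocyte factor Irf4 by -1.88 (limma adjusted p = 0.100) and Mavs (D430028G21Rik in the file), the adaptor of RIG-I, by 0.99 (limma adjusted p = 0.0929).

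Markers of T, NK, B and plasma cells were below 0 together with the gamma-leaning genes. All 14 tested T and NK cell genes were below 0 (median -1.86), 5 of them past the threshold beside 1.23% of all genes, and their level was -0.57 to 1.39 on the FVBN/APCmin arrays and -1.71 to 1.14 on the iPGC-1β/APCmin arrays. Cd8a, Gzmb and Ncr1 were detected on 0 arrays. All 12 tested B and plasma cell genes were below 0 (median -3.12), with levels of -1.11 to 2.06 and -2.41 to 2.53, and none passed by limma, while 11 were lower at an unadjusted p below 0.05, beside 11.8% of all genes. Of 12 tested macrophage and dendritic cell genes 9 were below 0 (median -0.37) with overlapping levels of -0.67 to 0.60 and -1.20 to 0.71, the highest on array 12, where the gamma-leaning level was -0.86. Of 4 tested plasmacytoid dendritic cell genes, which mark the cells known for making type I interferon, 3 were below 0, with levels of -0.53 to 0.93 and -1.07 to 0.71. Of 12 tested epithelial genes 9 were below 0 (median -0.28), 5 of them lower at an unadjusted limma p below 0.05, beside 11.8% of all genes. The muscle and fibroblast genes lay on both sides, 5 of 11 below 0 (median 0.12). Endothelial, hemoglobin, neutrophil and mast cell, and Wnt genes lay mostly above 0. None of these lists, epithelial and muscle included, had a gene past the threshold by limma. The level of 8 endothelial genes separated the genotypes, at -0.46 to -0.18 on the control arrays and -0.09 to 0.94 on the others, with 6 of the 8 higher at an unadjusted p below 0.05 beside 11.5% of all genes. Both tested hemoglobin genes (median 2.17) and 3 of 4 neutrophil and mast cell genes (median of the 4, 1.84) were above 0, with array 9 the highest array of each list at 4.02 and 2.24. All 9 tested genes of Wnt signalling in adenomas were above 0 (median 0.58). The part of these cells in the interferon genes was not tested beyond the fits with the lymphocyte level given above.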

How the data were processed

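For 25697 probes on 12 Illumina bead arrays (biotin label, per the labels' protocols), the authors deposited 1 table of unnormalized mean bead intensity, with a detection p-value beside each value, per the file headers. A second deposited table holds intensity with nearly equal medians in all columns (157.8 to 158.1), read from its values as normalized between arrays. The software was GenomeStudio, per the submitters' processing notes, which give no version. In R 4.3.3 with limma 3.58.1, neqc used the detection p-values to model background, with an offset of 16, and returned quantile-normalized log2 values. Kept probes were those detected (p-value under 0.05) in 4 or more samples, and per symbol the kept probe with the highest mean was used. Of 22 other kept probes of the 39 genes, 17 differed in the same direction. The 31 probes whose symbol had become a date kept their probe identifier. Genotypes were compared with lmFit and eBayes with an intensity trend, without covariates, with Benjamini-Hochberg adjustment over all 10967 genes. Precision is limited by the number of arrays. The fit was tested on simulated data. Symbols of other lists were matched through RefSeq synonyms. Values per array were given for genes past the threshold, the 10 largest differences, all gamma-leaning genes and the smallest p of each role, and from the other lists the genes past the threshold and up to 4 with the smallest p were named, except 1 that is not reported here; Usp18, Oasl2, Rsad2 and other genes quoted on single arrays were chosen after their values were seen. The members, lists and tests were chosen with earlier results of these data known. Alternatives were another background correction, offset, scaling, filter or probe rule, eBayes without trend, array weights, the authors' table, the lymphocyte level as a covariate and leaving out arrays.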

Additional observations from a re-analysis of the deposited data

Results flagged for a closer look

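Within each genotype, a single array stood far from the other 5 for 3 of the 78 combinations of gene and genotype checked. Chance flags about 1 in 20. On array 6 (FVBN/APCmin) Irf5 had a log2 level of 6.178, where the next lowest control array was at 7.99, and Irf9 had 8.994, where the next was at 9.384. Array 6 was also the control array lowest in lymphocyte mRNA. On array 4 (FVBN/APCmin) Ifngr2 was at 9.69, with the next lowest control array at 10.33.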

How the results depend on the processing

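No paired analysis was made because the labels give no pairing between the groups. The gamma-leaning median stayed below 0 in every setting run (-1.29 to -0.48). Here and below it includes Socs1 wherever that gene was tested, and Socs1 passed the filter through the control arrays alone. The count of genes past the threshold, 378 (243 higher and 135 lower), was 5 (3 higher, 2 lower) with lymphocyte level added to the fit, with 0 members lower. It was 200 (130 and 70) without a filter. With array quality weights it was 2403 (1192 and 1211), with 10 members and 19 outside gamma-inducible genes lower. Without arrays 6 and 7 it was 2184 (1056 and 1128), with 7 members lower. A common 75th percentile left 89 lower. The outside type I-inducible median was -0.15 without a filter. With the covariate the type I-leaning median was -0.0645, the gamma-leaning one -0.48 and the outside gamma-inducible one -0.52 with 0 past the threshold. Gamma-leaning minus type I-leaning was then -0.41 among members and -0.25 outside. Irf5 turned to 0.38 and Oas2 to -0.0699. Leaving out single arrays gave 129 to 1821 genes past the threshold (92 to 848 higher, 35 to 973 lower), 0 to 5 members lower and 5 to 17 outside gamma-inducible genes lower. The type I-leaning median ran from -0.0435 without array 8 and -0.0019 without array 9 to 0.27 without array 12. The cause of these shifts was not tested.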
